A study of Rattus norvegicus with 6 samples.

Results

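Gene expression on the Medium conductive carbon film was compared with that on the High conductive carbon film in rat neural stem/progenitor cells (NSPCs), with 2 libraries for each film. After the ribosomal RNA rows Rn45s, Rn18s, Rn28s and Rn5-8s were left out, the rows with at least 100 raw counts in both libraries of the Medium film, of the High film or of both were described. These were 4554 of the 17048 rows in the count tables (4506 of 16881 gene symbols), or of the 9559 remaining rows that had a count in at least 1 of the 6 libraries of the series. Of the 4554 rows, 2649 (58.2%) reached 100 counts in both libraries of both films, 858 did so in Medium alone and 1047 in High alone, and all 4554 entered the test.

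The cells were wild-type NSPCs taken from the embryonic telencephalon of Sprague-Dawley rats, and all films carried the same agents. Each film was a bilayer membrane of multiwall carbon nanotubes and graphene oxide nanoribbons, coated with poly-D-lysine and then laminin, and the cells grew on it for 24 h in a serum-free medium that maintains stemness. The films differed in how long the nanotubes were oxidized with potassium permanganate and sulfuric acid, the Medium film for longer, which gave 0.104 S/m for Medium and 3.22 S/m for High. The remaining film, Low, was used here for the estimate of the spread alone. Oxidation also changes the oxygen groups on the carbon, and the poly-D-lysine concentration was set for each film, so that conductivity cannot be told apart from these here. The labels do not say whether the 2 libraries of a film came from separate cultures or animals, so that p-values measure the spread between these libraries, which may be technical, and no label gives a batch.

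NSPCs are the dividing cells of the developing forebrain that renew themselves and give rise to neurons, astrocytes and oligodendrocytes, and they are held in that state by transcription factors such as Sox2 and by growth factors in the medium. Cells under oxidative, proteotoxic or nutrient stress turn on separate programs: NRF2 drives antioxidant and heme-degrading enzymes, HSF1 drives cytosolic chaperones, ATF4 drives amino acid supply and the factors of the integrated stress response, and p53 drives inhibitors of the cell cycle. Immediate early genes are transcribed within minutes of a signal and feed into the AP-1 factors.

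The libraries held 5124863 and 5914540 counts for Medium and 5478066 and 5412882 for High. The share of ribosomal RNA was 7.27% and 13.0% in Medium and 26.1% and 38.4% in High, which left 4752316 and 5143364 counts for Medium and 4048576 and 3335578 for High; the part of this difference in the results below was not tested. Levels are given as CPM, the remaining counts of each library brought to one total with TMM scaling, and they follow 3′ ends, so that transcript length does not enter them. The kit carries no molecular identifiers and reads with several alignments were counted, so that near-identical genes such as actins, tubulins, Hsp90 and ribosomal proteins are uncertain in how reads were shared. The labelled cell type held up: 6 of the 8 NSPC markers (among them Nes, Sox2, Vim, Fabp7 and Lhx2) had counts in all 4 libraries, Pax6 had counts in 3 of 4, and Sox1 was not analysed here. The summed level of these markers was 5874 and 5372 CPM in Medium and 3542 and 3369 CPM in High. Of the neuronal markers Tubb3, Rbfox3 and Syt1 were at 0 in all 4 libraries, and the summed level of all 8 was 0.202 and 1.19 CPM in Medium and 39.9 and 15.4 CPM in High. Astrocyte markers summed to 130.1 and 81.6 CPM in Medium and 77.5 and 118 CPM in High, with Aqp4 and Aldh1l1 at 0, and oligodendrocyte lineage markers to 601 and 663 CPM and to 394 and 433 CPM, with Sox10 and Mbp at 0. Microglial markers were at 0 apart from 28 counts of Ptprc in Medium replicate 2. Markers of meningeal and vascular cells stood at 0 and 474 CPM in Medium and at 9.47 and 43.4 CPM in High, and Medium replicate 2 held most of them, with 2005 counts of Col1a1 and 384 of Col3a1.

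Hmox1 was the one row that passed the adjusted threshold. Of 7731 rows tested with edgeR's quasi-likelihood test, 1 row had an adjusted p under 0.05 (lower in Medium, 0.0129%) and 0 were higher (0%). At an unadjusted p under 0.05 there were 183 higher (2.37%) and 131 lower (1.69%). Under DESeq2, 195 rows were called higher and 129 lower, and under limma-voom 8 and 7. Of the 90 named rows, Hmox1 aside, DESeq2 called 57 and limma-voom 14, each in the direction given here. Many of these rows were picked by p, overlap or level in the same libraries, so that these counts are no independent support. Without Medium replicate 2 the same edgeR test called 37 rows higher and 232 lower, and without Medium replicate 1 it called 6 and 3. A row was also counted as higher or lower where the group means differed at least 1.5-fold (after adding 1 CPM) and the libraries of the films did not overlap, a count with no test, since 2 libraries against 2 cannot go below an exact permutation p of 0.333. By this rule 1052 rows (13.6%) were higher in Medium and 1333 (17.2%) lower. The counts per gene list by this rule below are to be read against these shares. With 1 library left out the rule is met more often, since a lone library of a film cannot overlap: without Medium replicate 1 29.3% of all rows were higher and 20.8% lower, without Medium replicate 2 23.6% and 35.3%, without High replicate 1 21.9% and 29.5%, and without High replicate 2 20.2% and 30.4%.

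Among the 2649 rows with at least 100 counts in both films, 419 (15.8%) were higher and 369 (13.9%) lower by the fold rule, near the shares of all rows tested. The median log2 fold change (Medium minus High) of these 2649 rows was 0.05, with quartiles of -0.45 and 0.53, and 80.6% of them lay within 2-fold. Over the same rows the correlation of log2 CPM between the Medium replicates was 0.747, between the High replicates 0.819, and between films from 0.687 (Medium replicate 1 with High replicate 2) to 0.799 (Medium replicate 2 with High replicate 1), so that Medium replicate 2 lay nearer to either High library than to Medium replicate 1. The 858 and 1047 rows that passed through 1 film alone were chosen by a high count in that film. This choice favours that direction (median log2 fold changes of 1.33 and -1.51). Some gene lists are therefore described below also by their rows at 100 counts in both films. These are the NRF2, heat shock, integrated stress response, endoplasmic reticulum, immediate early, neural stem cell, neuronal, Notch and cell cycle lists. The counts of the remaining lists are over all tested rows, which can include rows that passed through 1 film alone. At the edge of the rule, the 126 rows whose deciding count was 100 or up to 9 counts above it had a median absolute log2 fold change of 1.11, and the 142 rows up to 10 counts below it one of 1.505.

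How far a row could be resolved depended on its level. Among the 1500 rows at a mean of 50 to 100 CPM, the median absolute log2 difference was 1.39 between the Medium replicates, 1.05 between the High replicates and 1.16 between the film means. At 200 to 500 CPM these were 0.55, 0.43 and 0.48 over 709 rows. In the 153 rows at 1000 CPM or over they were 0.25, 0.19 and 0.32, and 27 of these rows (17.6%) were higher in Medium and 15 (9.80%) lower by the fold rule. The film difference is one of means of 2 libraries and the replicate difference one of single libraries, so that the first is the smaller where films do not differ. A row could also drop out of 1 library: 2084 rows had 0 counts in one Medium library and at least 50 in the other, and 1420 rows did so in High.

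**Figure D1:**
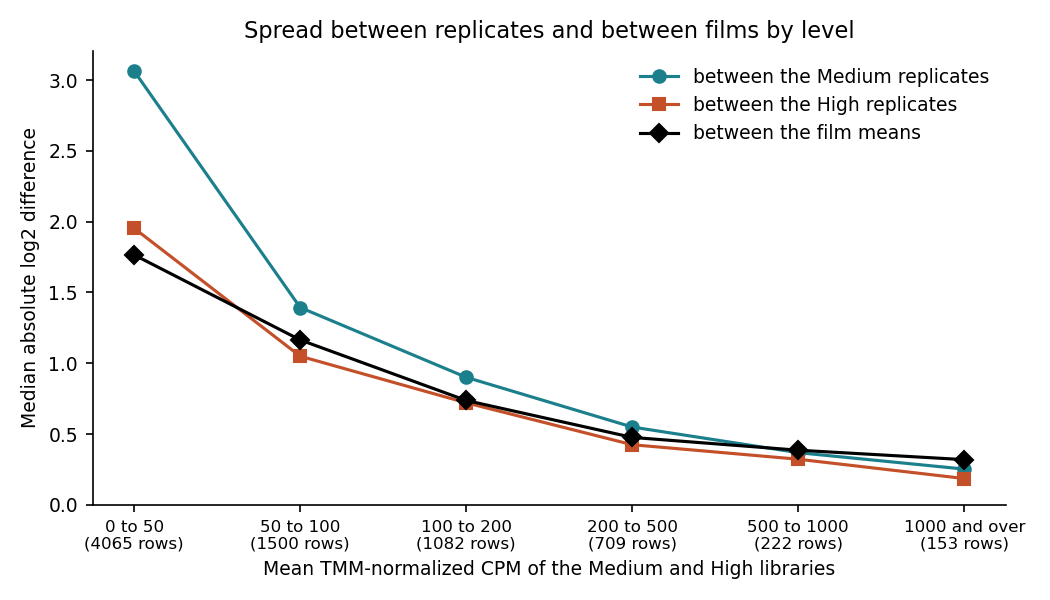
Median absolute log2 difference (vertical axis) between the 2 Medium replicates, between the 2 High replicates and between the film means, over the 7731 rows tested in 6 ranges of mean CPM (horizontal axis). The film line lies above both replicate lines at 500 CPM and over, and at or below the Medium line in the other ranges.

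Hmox1, which encodes the inducible enzyme that breaks down heme into biliverdin, iron and carbon monoxide, fell on the Medium film relative to High. It stood at 1084 and 1062 CPM in the Medium libraries and at 6118 and 5719.6 CPM in the High libraries, from 5357 and 5351 counts against 24539 and 19747. The groups were far apart and the replicates close, at 1073 ± 15.2 CPM (SD, n = 2) for Medium and 5919 ± 281 CPM (SD, n = 2) for High, 5.51-fold higher in High. The log2 fold change was -2.46 ± 0.22 (SE), with an adjusted p of 0.00458 by edgeR. It kept an adjusted p under 0.05 in all 16 alternatives, with log2 fold changes from -2.50 to -2.35 and adjusted p from 3.42e-30 to 0.024.

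Beside Hmox1, the rows with the smallest p among those lower in Medium encode regulators of the cell cycle, of transcription and of redox state, and chaperones. Cdkn1a, the p21 inhibitor of cyclin-dependent kinases, was at 526 and 607 CPM in Medium and 1945 and 1738 CPM in High (log2 fold change -1.70 ± 0.26, adjusted p = 0.135). Brd2, a reader of acetylated histones, was at 314 and 392 CPM and 1365 and 1163 CPM (log2 fold change -1.84 ± 0.31, adjusted p = 0.173). Skiv2l2, the RNA helicase of nuclear RNA decay, was at 121 and 199.7 CPM and 602 and 545 CPM (log2 fold change -1.84 ± 0.41, adjusted p = 0.375). None of these 3 rows passed the adjusted threshold. Both Medium libraries lay below both High libraries in each by choice, since the rows were picked among those without overlap. Nfkbia, the inhibitor that holds NF-kappa-B in the cytoplasm, had the lowest log2 fold change of the 2649 rows, -3.23 ± 0.75, with 25.1 and 34.4 CPM in Medium and 266 and 291 CPM in High (adjusted p = 0.397).

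The rows higher in Medium with the smallest p encode cytoskeletal, growth cone and signaling proteins and a subunit of the respiratory chain. Tuba1a, the main alpha-tubulin of young neural cells, was at 2687 and 3279 CPM in Medium and 1074 and 919 CPM in High (log2 fold change 1.58 ± 0.21, adjusted p = 0.082). Basp1, a membrane protein of the growth cone, was at 2088 and 1197 CPM and 430.3 and 402 CPM (log2 fold change 1.98 ± 0.30, adjusted p = 0.135). Cox7c, a subunit of cytochrome c oxidase, was at 3393 and 3038 CPM and 1219 and 1347 CPM (log2 fold change 1.33 ± 0.21, adjusted p = 0.135). None of the 3 passed the adjusted threshold, and that both Medium libraries were above both High libraries in each was a condition of the choice. Chrm3, the M3 muscarinic receptor, showed the largest difference of the 10 named rows, 502 and 585 CPM against 147 and 98.5 CPM (log2 fold change 2.15 ± 0.40, adjusted p = 0.173). Gas6, the secreted ligand of the TAM receptor kinases, was at 1938 and 2061 CPM in Medium and 869.6 and 919.9 CPM in High, and Dusp6, a phosphatase that switches off ERK, at 2921 and 3147 CPM and 1379 and 1413 CPM. Their replicates differed by far less than the films, and both had an adjusted p of 0.173.

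**Figure D2:**
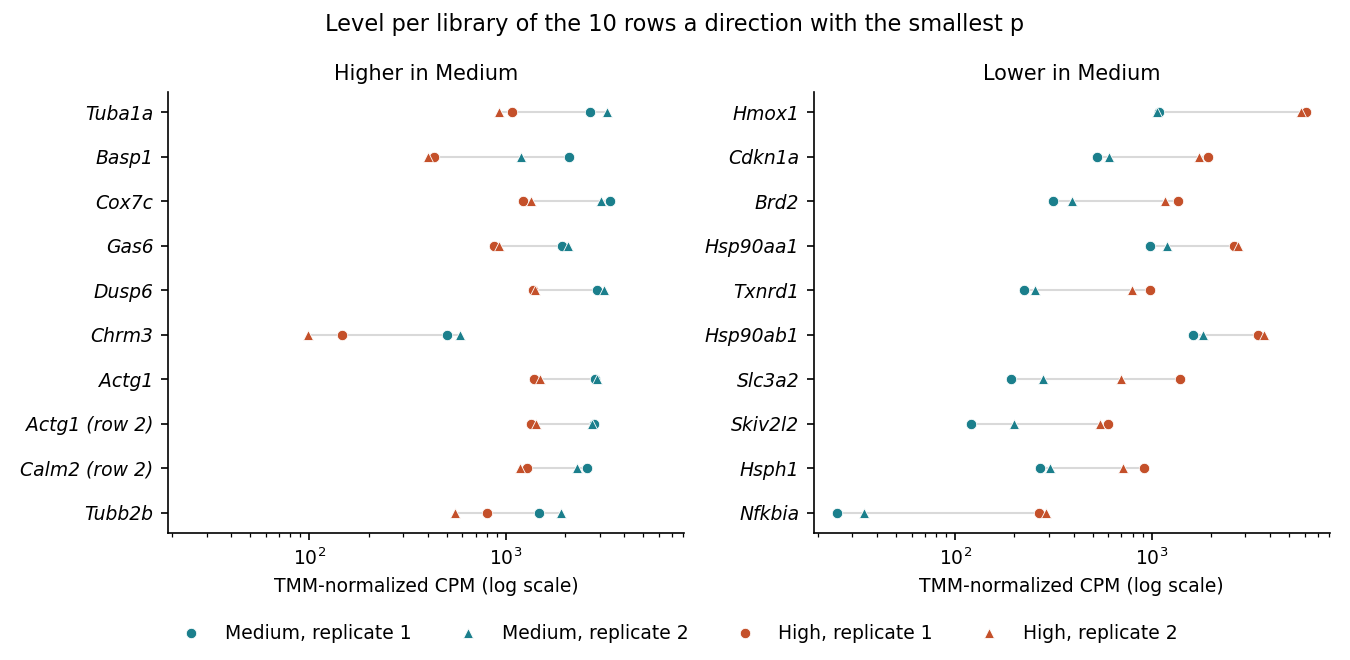
TMM-normalized CPM in each library (horizontal axis, log scale) for the 10 rows a direction with the smallest p among those with at least 100 counts in all 4 libraries and no overlap (vertical axis); colours mark the film and symbols the replicate. In each row the Medium and High libraries stand apart, as the choice required, and of these 20 rows Hmox1 alone had an adjusted p under 0.05.

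**Figure D3:**
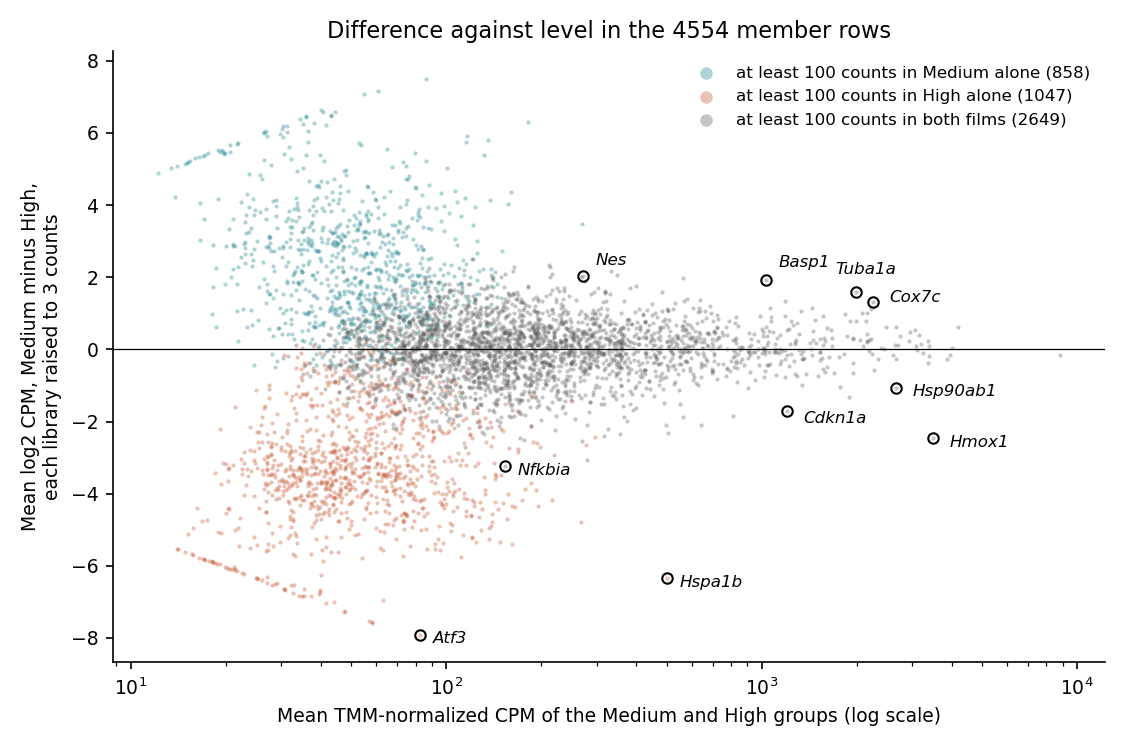
Difference of the mean log2 CPM, Medium minus High, with each library raised to at least 3 counts (vertical axis) against the mean CPM of both films (horizontal axis, log scale) for the 4554 rows, coloured by the film in which they reached 100 counts. The spread narrows toward high levels, where Hmox1 (mean of 1073 CPM in Medium and 5919 CPM in High) stands below the other rows; the rows that reached 100 counts in 1 film alone lie mostly to the side of that film, by which they were chosen.

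Of the NRF2 targets and the genes of heme and iron handling, 8 of 27 tested rows were lower in Medium and 2 higher by the fold rule, where 17.2% and 13.6% of all rows were. The median difference of the list, with each library raised to 3 counts, was -0.20 on the log2 scale and that of all rows tested was -0.21. At an unadjusted p under 0.05, 5 of the 27 rows were lower and 0 higher, where 1.69% and 2.37% of all rows were. DESeq2 called 4 of them lower, where it called 129 of all 7731 rows lower. Of the 16 rows of the list at 100 counts in both films, 5 were lower and 0 higher, with a median of -0.28, where the median of all 2649 such rows was 0.03. The summed level of the list was 11762 and 13224 CPM in Medium and 18795 and 18386 CPM in High, with Hmox1 the largest part of the difference. Txnrd1, the cytosolic thioredoxin reductase, was at 223 and 254 CPM in Medium and 977 and 792 CPM in High (log2 fold change -1.89 ± 0.34, adjusted p = 0.173). Srxn1, which reduces oxidized peroxiredoxins, was at 8.9 and 36.1 CPM and 319.6 and 417 CPM, and Ftl1, the ferritin light chain that stores iron, at 299.9 and 319 CPM and 641 and 693 CPM. The last 2 had adjusted p of 0.39 and 0.783, and in both the films did not overlap. Srxn1 entered the description through its High libraries alone.

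Heat shock chaperones, which refold damaged proteins, counted 9 of 22 tested rows lower in Medium and 3 higher by the fold rule, with a list median of -0.52. The list is not cytosolic alone: the mitochondrial chaperonins Hspd1 and Hspe1 belong to it and were among the rows counted higher. Over the 15 rows at 100 counts in both films it was 4 lower and 3 higher, with a median of -0.44. Leaving out each of the 4 libraries in turn gave from 10 to 12 of the 22 rows lower and 2 to 3 higher, against the shares of all rows given above. DESeq2 called 4 lower and 1, Hspd1, higher, where it called 129 and 195 of all 7731 rows. Hsp90aa1, the inducible Hsp90, was at 985 and 1191 CPM in Medium and 2634 and 2761 CPM in High, and Hsp90ab1, the constitutive one, at 1623 and 1828 CPM and 3480.0 and 3729 CPM; both had an adjusted p of 0.173. Hsph1, a nucleotide exchange factor of Hsp70, was at 269 and 304 CPM and 913 and 716 CPM (adjusted p = 0.39). Hspa1b, an Hsp70 that is transcribed mainly under stress, was nearly absent in Medium, at 3.44 and 39.3 CPM, and abundant in High, at 1227 and 729.6 CPM (log2 fold change -5.51 ± 0.98, adjusted p = 0.173). It was described through its High libraries alone, and the size of its difference rested on the Medium library used: with Medium replicate 2 left out it was -8.14 on the log2 scale, and with Medium replicate 1 left out -4.64. The summed level of the list was 9689 and 10037 CPM in Medium and 16128 and 14947 CPM in High. The ribosomal RNA share given above moved with the films in the same way.

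Genes of the integrated stress response counted 11 of 24 tested rows lower in Medium and 3 higher by the fold rule, with a list median of -1.62. Since 6 of them were chosen by a high count in High alone, the 14 rows at 100 counts in both films were also counted, and of these 5 were lower and 2 higher, with a median of -0.59. With each library left out in turn, 10 to 17 of the 24 rows were lower and 3 to 4 higher, against the shares of all rows given above. DESeq2 called 4 lower and 0 higher, where it called 129 and 195 of all 7731 rows. Slc3a2, the heavy chain of the cystine and large amino acid transporters, was at 193 and 281 CPM in Medium and 1399 and 699.8 CPM in High (adjusted p = 0.29). Aars, the alanyl-tRNA synthetase, was at 196 and 195 CPM and 677 and 535 CPM (adjusted p = 0.429), and Nars, the asparaginyl-tRNA synthetase, at 191 and 197 CPM and 475 and 523 CPM (adjusted p = 0.783). The replicates of both synthetases were close within Medium, and no Medium value overlapped a High value. Atf3, a stress-induced factor that pairs with AP-1 proteins, had 0 counts in both Medium libraries and 991 and 291 in the High libraries, at least 276-fold lower in Medium against a floor of 3 counts per library, or at least 140.2-fold with High replicate 2 in place of the mean of both (adjusted p = 0.491). Ppp1r15a, which directs the dephosphorylation of eIF2-alpha and so ends the response, was at 0 and 75.1 CPM in Medium and 301 and 268 CPM in High (adjusted p = 0.917), and 1 Medium library had no count. Atf3 and Ppp1r15a were described through their High libraries alone.

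The promoters of 3 rows of these stress lists are printed to show matches to elements of stress factors; the sequences are RefSeq's, on the GRCr8 build, from 250 bases before the start site to 50 after it, and the counts were made on another build, rn6. Of the 4506 symbols, 3780 matched such a window. Capitals mark matches, on either strand, to the heat shock element (the blocks GAA, TTC and GAA with any 2 bases between neighbours), the ATF4 composite element TGATGNAA, the AP-1 site TGANTCA or the core of the antioxidant response element TGACNNNGC, the last of which can overlap an AP-1 site. Hsph1 lies on chr12:10427118-10427417 (plus strand), Aars on chr19:55908232-55908531 (plus strand) and Srxn1 on chr3:161064562-161064861 (plus strand).
Hsph1: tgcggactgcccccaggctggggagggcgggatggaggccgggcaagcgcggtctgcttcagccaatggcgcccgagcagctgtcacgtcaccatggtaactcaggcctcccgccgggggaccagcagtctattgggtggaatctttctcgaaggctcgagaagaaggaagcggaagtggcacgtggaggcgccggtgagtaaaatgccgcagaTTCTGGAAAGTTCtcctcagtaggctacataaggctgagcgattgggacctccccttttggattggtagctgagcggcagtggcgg
Aars: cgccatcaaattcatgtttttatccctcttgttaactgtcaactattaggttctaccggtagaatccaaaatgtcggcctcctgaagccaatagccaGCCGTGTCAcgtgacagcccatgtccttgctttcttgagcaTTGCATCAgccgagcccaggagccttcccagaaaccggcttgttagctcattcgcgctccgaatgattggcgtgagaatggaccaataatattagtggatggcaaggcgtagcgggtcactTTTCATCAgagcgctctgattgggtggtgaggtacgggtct
Srxn1: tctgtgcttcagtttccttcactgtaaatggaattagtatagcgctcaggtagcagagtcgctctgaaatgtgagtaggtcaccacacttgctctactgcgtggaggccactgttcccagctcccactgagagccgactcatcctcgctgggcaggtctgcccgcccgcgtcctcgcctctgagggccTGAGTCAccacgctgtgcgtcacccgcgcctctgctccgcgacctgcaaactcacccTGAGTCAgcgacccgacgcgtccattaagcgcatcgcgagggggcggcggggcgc

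With the start site as position 0, the heat shock element of Hsph1 ran from -36 to -24, the ATF4 elements of Aars from -112 to -105 and from 9 to 16, with an antioxidant response element core from -153 to -145, and the AP-1 sites of Srxn1 from -62 to -56 and from -5 to 1. The window of Srxn1 held no match to TGACNNNGC, the one form of the antioxidant response element core that was searched. Other forms of this element were not searched. The heat shock element was in 0.798% of 33469 promoter windows and in 6 of 18 windows of the chaperone list (33.3%). These 6 did not all lie on one side: by the fold rule Hsph1, Dnaja1 and Chordc1 were lower in Medium, Hspd1 and Hspe1, the mitochondrial chaperonins whose windows overlap, were higher, and Hspa8 was neither. The ATF4 element was in 3.98% of all windows and in 5 of 22 of the integrated stress response list (22.7%), namely Aars, Nars, Chac1, Trib3 and Nupr1, of which the first 4 were lower by the fold rule and Nupr1 higher. AP-1 sites were in 7.33% of all windows and in 5 of 22 windows of the NRF2 list (22.7%), and the antioxidant response element core in 12.1% and in 7 of 22 (31.8%). These shares were not particular to the NRF2 list. The integrated stress response list had the same 5 of 22 and 7 of 22, and the core was in 6 of 18 windows of the BCL2 and caspase list (33.3%). A match is a description of the letters, not of binding.

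Endoplasmic reticulum chaperones gave 5 of 17 tested rows lower and 0 higher by the fold rule, with a list median of -0.66 (2 of 9 lower and a median of -0.58 at 100 counts in both films). By edgeR 1 of the 17 rows had an unadjusted p under 0.05 and none an adjusted p under 0.05. DESeq2 called 1 lower, where it called 129 of all 7731 rows lower. Calr, the calcium-binding chaperone calreticulin, was at 400.4 and 562 CPM in Medium and 842 and 766 CPM in High (adjusted p = 0.917). For immediate early genes 8 of 17 were lower and 0 higher, with a median of -1.54, but 8 of the list were chosen by a high count in High alone. Over the 7 rows at 100 counts in both films 2 were lower and 0 higher and the median was 0.11 and so not low. At an unadjusted p under 0.05 there were 4 of the 17 lower, and neither DESeq2 nor limma-voom called any. Fosl1, an AP-1 subunit, was at 4.05 and 78.2 CPM and 404 and 586 CPM, Ier3, a stress-inducible survival gene, at 72.0 and 421 CPM and 723 and 776 CPM, and Ier2 at 289.8 and 418 CPM and 971 and 440.3 CPM. The Medium replicates of Fosl1 and Ier3 were themselves far apart, with Medium replicate 2 nearer to High in both, and the adjusted p of the 3 rows was 0.917. Fosl1 was described through its High libraries alone.

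Targets of p53 counted 6 of 15 tested rows lower and 2 higher, with a median of -0.48. Mdm2, the ubiquitin ligase that degrades p53, was at 294 and 146 CPM in Medium and 555 and 444 CPM in High, on the same side as Cdkn1a. Plk2, a polo-like kinase, at 542 and 108 CPM and 106 and 71.5 CPM, and Gadd45a, a growth arrest gene, at 527 and 258 CPM and 174 and 196 CPM, were on the other side, with Medium replicate 1 the highest of the 4 libraries for both. Of the BCL2 family and caspases 5 of 17 were lower and 3 higher, but 6 lower and 7 higher without High replicate 1. Birc5, the mitotic inhibitor of apoptosis survivin, was at 364 and 893 CPM and 181 and 156 CPM (adjusted p = 0.537). Sqstm1, the autophagy receptor p62, was at 1331 and 1006 CPM in Medium and 2374 and 2363 CPM in High (log2 fold change -1.02 ± 0.24, adjusted p = 0.403). Of 19 rows of autophagy and lysosomes 4 were lower (21.1%) and 2 higher (10.5%), where 17.2% and 13.6% of all rows were. All 9 tested rows of the study's own apoptotic process list were lower by the fold rule, but that list was chosen on these libraries and is no independent evidence of its direction.

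**Figure D4:**
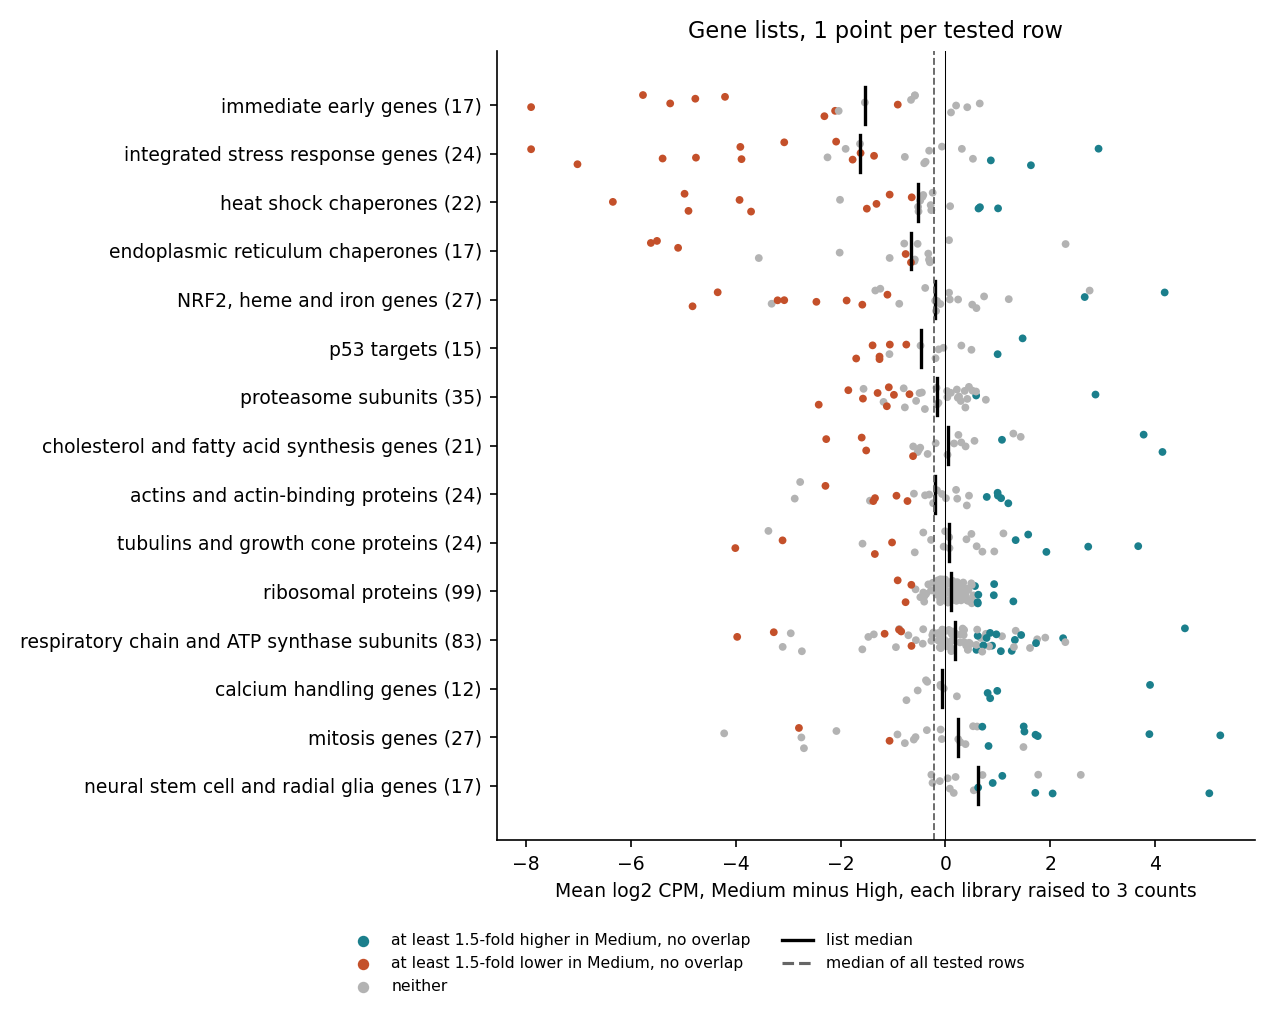
Difference of the mean log2 CPM, Medium minus High, with each library raised to at least 3 counts (horizontal axis), for each tested row of 15 gene lists (vertical axis, number of tested rows in brackets); colours mark rows at least 1.5-fold apart without overlap, black bars the list medians and the dashed line the median of all 7731 rows (-0.21). Of the 15 lists shown, the immediate early (-1.54) and integrated stress response lists (-1.62) have the medians farthest to the left, where rows chosen by a high count in High alone take part (over rows at 100 counts in both films the medians are 0.11 and -0.59). Farthest to the right of the 15 is that of the neural stem cell list (0.62). The ID and BMP response list, not shown, has a median of 1.12 over 8 tested rows (0.33 over the 3 rows at 100 counts in both films).

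Neural stem cell and radial glia genes were on the other side, with 6 of 17 tested rows higher in Medium and 0 lower by the fold rule and a median of 0.62; 5 rows had an unadjusted p under 0.05. Over the 12 rows at 100 counts in both films it was 5 higher and 0 lower, with a median of 0.58. With each of the 4 libraries left out in turn, 6 to 10 rows were higher and 0 to 2 lower, against the shares of all rows given above. DESeq2 called 4 higher and 0 lower, where it called 195 and 129 of all 7731 rows. Nes, the intermediate filament nestin of neural progenitors, was at 482 and 396 CPM in Medium and 112 and 99.6 CPM in High (log2 fold change 2.05 ± 0.47, adjusted p = 0.39). Sox2, the factor that maintains the stem cell state, was at 705 and 671 CPM and 325 and 323 CPM (log2 fold change 1.09 ± 0.28, adjusted p = 0.537). Lhx2, a forebrain homeobox factor, was at 395 and 327 CPM and 127 and 94.7 CPM, and Sox9, a factor of glial progenitors, at 1124 and 1684 CPM and 718 and 755 CPM. All 4 rows had Medium above High in every library, and none passed the adjusted threshold. In bulk RNA fewer cells of a type and less RNA per cell cannot be told apart.

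Genes of later cell types had few rows tested. Of 7 oligodendrocyte lineage rows 2 were higher in Medium (28.6%) and 0 lower by the fold rule, where 13.6% and 17.2% of all rows were. Olig2, which marks the oligodendrocyte lineage and also progenitors, was at 408 and 367 CPM in Medium and 208 and 218 CPM in High (adjusted p = 0.917), and Olig1 overlapped between films, at 193 and 278 CPM and 178 and 216 CPM. Of 9 neuronal rows tested 2 were higher in Medium and 0 lower. At 100 counts in both films there were 2 rows, with 0 higher and 0 lower. Elavl4, a neuronal RNA-binding protein, was at 124 and 149 CPM and 57.3 and 15.6 CPM and passed 100 counts through its Medium libraries, whereas Gap43, a growth cone protein of neurons, overlapped at 31.8 and 177 CPM and 69.1 and 22.3 CPM. None of the 8 astrocyte rows tested differed by the fold rule in either direction, where edgeR gave 0 rows with an unadjusted p under 0.05. Cst3, the secreted cysteine protease inhibitor cystatin C, was at 9291 and 7295 CPM and 10848 and 7801 CPM. Of 10 Notch pathway rows 2 were higher and 1 lower (2 and 4 without High replicate 2). At 100 counts in both films there was 1 row, with 0 higher and 0 lower. Jag1, a ligand, was at 98.7 and 96.1 CPM in Medium and 9.22 and 8.4 CPM in High (adjusted p = 0.917). Dll1, a ligand that the study names, was on the other side, at 0 and 23.2 CPM in Medium and 48.1 and 56.5 CPM in High. Jag1 and Nrarp, the rows counted higher, were described through their Medium libraries alone and Dll1 through its High libraries alone. Id3, a BMP-induced inhibitor of bHLH factors, was at 217 and 113 CPM and 25.2 and 79.4 CPM, without overlap (adjusted p = 0.918).

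Tubulins and growth cone proteins counted 5 of 24 tested rows higher in Medium and 4 lower by the fold rule, and the median of 0.07 was above that of all rows. Without High replicate 2 the counts were 6 higher and 8 lower. DESeq2 called 5 higher and 0 lower, where it called 195 and 129 of all 7731 rows. Tuba1a and Basp1, given above, belong to this list. Tubb2b, a neural beta-tubulin, was at 1469 and 1915 CPM in Medium and 797 and 551 CPM in High (adjusted p = 0.29), and Map4, a microtubule-stabilizing protein, at 305 and 215 CPM and 52.4 and 28.7 CPM (adjusted p = 0.574). Map4 was described through its Medium libraries alone. Among actins and actin-binding proteins 5 of 24 were higher and 5 lower (20.8% each), where 13.6% and 17.2% of all rows were. Without Medium replicate 2 it was 3 and 9. Actg1, cytoplasmic gamma-actin, has 2 rows, at 2845 and 2908 CPM and at 2805 and 2734 CPM in Medium against 1391 and 1497 CPM and 1345 and 1423 CPM in High, which follow each other closely and may hold the same reads. Tmsb10 and Tmsb4x, the thymosins that bind actin monomers, were at 1139 and 782 CPM and 2376 and 3015 CPM in Medium and at 412 and 409.6 CPM and 1969.7 and 1219 CPM in High, with adjusted p of 0.419 and 0.917.

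Calcium handling genes gave 4 of 12 tested rows higher and 0 lower, with a median of -0.06, and 3 had an unadjusted p under 0.05. Without Medium replicate 2 the counts were 3 higher and 4 lower, and without High replicate 2 they were 4 and 2. Calm2, a calmodulin gene, has 2 rows that point in opposite directions, one at 2578 and 2299 CPM in Medium and 1279 and 1176 CPM in High (log2 fold change 0.99 ± 0.20) and one at 225 and 258 CPM and 310.1 and 314 CPM (log2 fold change -0.37 ± 0.56). The adjusted p was 0.29 for the more abundant row and 1 for the other. Ppp3r1, the regulatory subunit of the calcium-dependent phosphatase calcineurin, was at 500.2 and 779 CPM and 315 and 379 CPM. Of 8 tested rows of the study's calcium channel list, chosen on these libraries, 2 were lower and 0 higher; Trpm7, a channel kinase, was at 33.2 and 57.4 CPM and 91.0 and 191 CPM, and Cacna2d1, an auxiliary subunit of voltage-gated channels, at 0 and 4.17 CPM and 46.6 and 29.5 CPM. Their summed level was no more than 197 CPM in either Medium library and no more than 560 CPM in either High library, in the range where replicates differ most. Cacna2d1 was described through its High libraries alone.

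**Figure D5:**
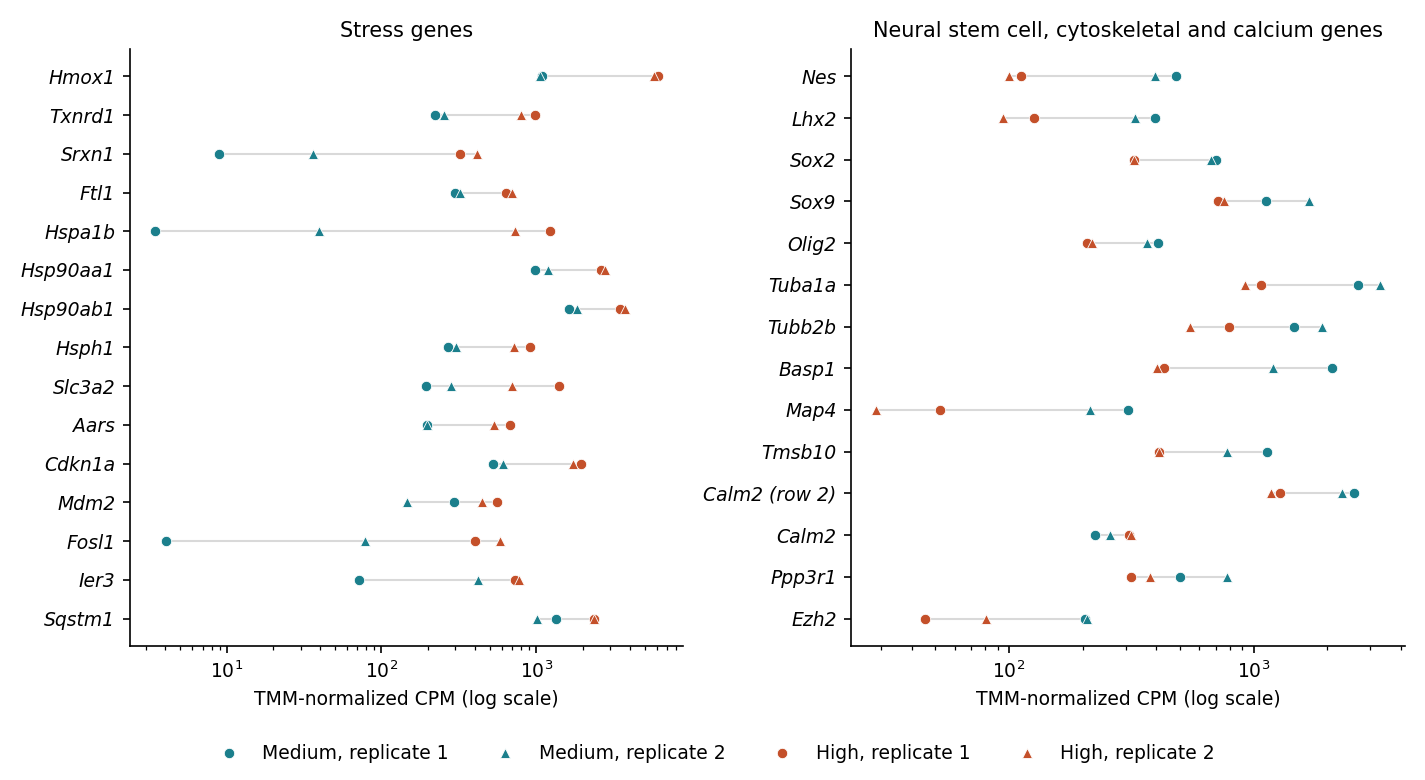
TMM-normalized CPM in each library (horizontal axis, log scale) for 15 stress genes and 14 rows of neural stem cell, cytoskeletal, calcium and chromatin genes (vertical axis); colours mark the film and symbols the replicate. In these picked rows Medium lies below High in each of the stress genes and above it in the others apart from the less abundant Calm2 row. That row was at 225 and 258 CPM in Medium and 310.1 and 314 CPM in High. Not shown are Plk2, Gadd45a, Hspd1 and Hspe1, which were higher in Medium by the fold rule, and Olig1, which overlapped. The uniform direction is thus in part a result of the picking. The Medium replicates of Hspa1b, Srxn1, Fosl1 and Ier3 are far apart.

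The respiratory chain and ATP synthase counted 14 of 83 tested rows higher in Medium and 6 lower, with a median of 0.18, and 8 rows had an unadjusted p under 0.05 in the higher direction against 1 in the lower. Beside Cox7c, Uqcr11, a small subunit of complex III, was at 675 and 598 CPM in Medium and 276 and 253 CPM in High, Atp5g3, a subunit of the rotor ring of ATP synthase, at 2625 and 2401 CPM and 1371 and 1549.6 CPM, and Ndufa2, of complex I, at 1035 and 747 CPM and 505 and 354 CPM. Their adjusted p ran from 0.726 to 0.783. Leaving out Medium replicate 2 gave 29 higher and 14 lower, and leaving out Medium replicate 1 gave 16 and 6. Ribosomal protein rows, summing to 143836 and 134255 CPM in Medium and 137466 and 121877 CPM in High, were mostly level, with 7 of 99 higher and 3 lower. Rpl22l1, a paralog of Rpl22, was at 863 and 638 CPM and 235 and 388 CPM, and Rpl22 itself at 5572 and 4619 CPM and 3428 and 3145 CPM, both with an adjusted p of 0.783.

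Proteasome subunits counted 8 of 35 tested rows lower and 2 higher, with a median of -0.16. Psmd2 and Psmd14, of the regulatory base and lid, were at 235 and 323 CPM and 155 and 240.1 CPM in Medium and at 571 and 594 CPM and 385 and 580.4 CPM in High, and Psmb3, of the core, at 97.3 and 314 CPM and 464 and 583 CPM. The 3 rows had adjusted p from 0.891 to 0.917. Of translation factors 5 of 31 were higher and 2 lower, and 7 and 7 without Medium replicate 2. Eif3f, a subunit of initiation factor eIF3, was at 177 and 357 CPM in Medium and 771 and 656 CPM in High (adjusted p = 0.77). Of splicing factors 4 of 36 were higher (11.1%) and 6 lower (16.7%), where 13.6% and 17.2% of all rows were. Without Medium replicate 1 it was 7 and 6. Snrpd1, a core Sm protein, was at 1549 and 1390.5 CPM in Medium and 686 and 631 CPM in High (log2 fold change 1.16 ± 0.24, adjusted p = 0.29).

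In metabolism, 4 of 23 rows of glycolysis and hypoxia were lower (17.4%) and 2 higher (8.70%). Of 21 rows of cholesterol and fatty acid synthesis 4 were lower (19.0%) and 3 higher (14.3%). Of all rows 17.2% were lower and 13.6% higher, so that neither list was lower much more often than all rows. Without High replicate 1 both balances turned, to 4 lower and 7 higher and to 5 lower and 6 higher. P4ha1, a hypoxia-induced prolyl hydroxylase of collagen, was at 145 and 82.2 CPM in Medium and 365 and 832 CPM in High (log2 fold change -2.40 ± 0.60, adjusted p = 0.482), whereas Ldha, lactate dehydrogenase, was on the other side at 533 and 324 CPM and 227 and 158 CPM. Srebf2, the master factor of cholesterol synthesis, was at 104 and 235 CPM and 429.5 and 465 CPM, and Idi1, an enzyme of the pathway, at 1442 and 1040.0 CPM and 2383 and 1484 CPM. The adjusted p of Ldha, Srebf2 and Idi1 was between 0.891 and 0.917.

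Cell cycle genes lay on both sides. DNA replication genes counted 6 of 29 tested rows higher in Medium and 4 lower, mitosis genes 8 of 27 higher and 2 lower, and G1 cyclins, kinases and inhibitors 1 of 13 higher and 3 lower, with medians of -0.05, 0.24 and 0.28. Of all rows 13.6% were higher and 17.2% lower. Without Medium replicate 2 the replication list gave 7 higher and 9 lower, and without Medium replicate 1 the G1 list gave 4 and 3. Ccnd1, cyclin D1, was among the most abundant of these and overlapped between films, at 3627 and 3811 CPM in Medium and 3530.3 and 4861 CPM in High. Ccna2, cyclin A2, was at 81.1 and 23.0 CPM and 0 and 1.74 CPM and Tpx2, a spindle assembly factor, at 353 and 122 CPM and 42.1 and 93.8 CPM, with adjusted p of 0.917 for both. Pold1, the catalytic subunit of DNA polymerase delta, had 373 and 230 counts in Medium and 0 in both High libraries, at least 74.9-fold higher. Ccna2 and Pold1 were described through their Medium libraries alone. Without Medium replicate 2 the mitosis list gave 12 higher and 9 lower, and without either High library 5 to 6 rows were lower.

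Chromatin proteins counted 5 of 27 rows higher and 5 lower (18.5% each), where 13.6% and 17.2% of all rows were, with a median of -0.42. Without Medium replicate 1 it was 9 higher and 5 lower, and without Medium replicate 2 it was 5 and 15. Ezh2, the histone methyltransferase of Polycomb complex PRC2, was at 204 and 208 CPM in Medium and 45.4 and 80.8 CPM in High, without overlap (adjusted p = 0.917). Smarca4, the ATPase of the BAF remodeler, was at 178 and 308 CPM and 528 and 423 CPM. Adhesion and matrix genes gave 3 of 22 higher and 2 lower, but 10 and 3 without Medium replicate 1 and 4 and 10 without Medium replicate 2. Fn1, fibronectin, was at 170.0 and 204 CPM and 47.4 and 34.8 CPM, and Anxa6, an annexin, at 203 and 214 CPM and 98.0 and 116 CPM, without overlap and with adjusted p of 0.917. The 12 rows of the study's list of neuronal, calmodulin and chromatin genes that were higher in Medium, of 13, were picked on these libraries and are no independent evidence.

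A few rows were present on 1 film and at 3 counts or fewer in both libraries of the other, 46 of the 858 rows of Medium alone and 55 of the 1047 of High alone. Sema4a, a semaphorin, had 1303 and 411 counts in Medium and 0 and 1 in High, and Chmp3, of the ESCRT machinery, 428 and 781 counts against 3 and 0. Tmem69, a membrane protein, had 605 and 487 counts in Medium and 0 in both High libraries, at least 136-fold higher. In the other direction Pelo, which rescues stalled ribosomes, had 0 counts in both Medium libraries and 467 and 401 in High, at least 193-fold lower, and Atg16l1, an autophagy protein, 0 against 544 and 315 counts, at least 189-fold lower. Acta2, smooth muscle actin, had 0 counts in Medium and 277 and 423 in High, at least 159-fold lower. With rows at 0 in one replicate and at least 50 in the other as common as given above, none of these rows passed the adjusted threshold, and their adjusted p ran from 0.29 to 0.917. Of the rows of Medium alone, 637 of 858 still reached 100 counts in 1 High library, as did 825 of 1047 rows of High alone in 1 Medium library.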

How the data were processed

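The report covers the 2 libraries of the Medium and the 2 of the High film, mapped to film and replicate by the sample titles. Per the labels the RNA was extracted with Trizol (the methods name a Ribospin kit), and QuantSeq 3′ libraries were made from it. What the authors deposited are raw counts in 1 table per library, made by mapping single-end reads with Bowtie2 and tallying alignments on genes with bedtools, reads with several alignments included; the submitters' processing notes name rn6 as the build. The conductivities are those the study gives. Columns of other samples numbered 0, and 167 rows that repeat a symbol were kept apart.

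The 7 rows of ribosomal RNA were left out before scaling. With R 4.3.3 and edgeR 4.0.16, rows were filtered with filterByExpr over all 6 libraries, scaled with TMM and tested with the quasi-likelihood test on 1 fit of the 3 film means (contrast Medium minus High, 3 residual degrees of freedom, common dispersion 2.04), with Benjamini-Hochberg adjustment over 7731 rows and a threshold of 0.05. Log2 fold changes are given with their SE. Alternatives were DESeq2 1.42.0, limma-voom (limma 3.58.1), other scalings and filters, the 4 libraries alone, a replicate block, a fold of 2 and leaving out each library; the counts per list without each library or over rows at 100 counts in both films, and floor folds from the lower library, were added after seeing the data. Counting error alone is covered by count floors of 3.

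Named rows are those with an adjusted p under 0.05, the 10 a direction with the smallest p at 100 counts in all 4 libraries without overlap, up to 4 members of each list with the smallest p, members the study names, the 6 a direction with the highest level against at most 3 counts, and cell markers, of which a part is printed. Rows named for a promoter match were chosen by the match. The members and gene lists were chosen with earlier results of these data known. Same-numbered libraries did not deviate together (r = 0.0062 between Medium and High over 7731 rows).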

Additional observations from a re-analysis of the deposited data

Results flagged for a closer look

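Outside the rows compared, the ribosomal RNA rows held a large and unequal share of the counts, 7.27% in Medium replicate 1, 13.0% in Medium replicate 2, 26.1% in High replicate 1 and 38.4% in High replicate 2. They are listed here because these rows entered no comparison. The films did not overlap in this share, and its part in the differences of other rows was not tested; with the rows kept in the library sizes the same number of rows was called, 0 higher and 1 lower.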

How the results depend on the processing

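Hmox1 was called lower in Medium under all 16 alternatives. RLE, library size and upper quartile scaling, keeping ribosomal RNA rows, the filter at 100 counts and the fit on 4 libraries gave the same counts of calls, 0 higher and 1 lower. Without a filter 29 rows were called higher and 18 lower, with DESeq2 195 and 129, and with limma-voom 8 and 7; the cause was not tested. Leaving out 1 library at a time gave from 6 to 37 rows called higher and from 3 to 232 called lower, the lowest counts without Medium replicate 1 and the highest without Medium replicate 2, and here the lone library of a film is assumed to vary like the others. The counts by the fold rule were 1069 to 2643 higher and 1369 to 2763 lower, larger by construction where 1 library of a film cannot overlap; with a fold of 2 they were 822 and 1170, and other scalings gave 1011 to 1078 and 1308 to 1411. With a replicate block 15 rows were called higher and 9 lower. No label says whether same-numbered libraries share a culture, an animal or a batch. Over 7731 rows their deviations had an r of 0.0062 between Medium and High, 0.0082 between Medium and Low and 0.0025 between High and Low. A low r over all rows cannot settle whether they share one. Under the block 17 of the 90 named rows gained a call and none lost one. Of the log2 fold changes of named rows, 4 turned sign, each in a row that overlapped between films: leaving out 1 library gave -0.022 (without Medium replicate 2) to 0.50 for Olig1, -0.52 (without Medium replicate 2) to 2.23 for Gap43, -0.37 to 0.11 (without High replicate 1) for Cst3, and -0.36 to 0.091 (without High replicate 2) for Ccnd1. Under 500 CPM the median difference between the Medium replicates reached or passed that between films.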
